A study of Sus scrofa with 8 samples.

Results

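Solute carriers are membrane proteins that move sugars, amino acids, ions, metals, nucleotides and metabolites across membranes, and their genes carry symbols that begin with SLC, a family number, a letter and a member number. Those of family SLC25 sit in the inner mitochondrial membrane, where they exchange ATP, phosphate, malate, aspartate, acylcarnitines and cofactors between the matrix and the cytosol. The others lie mostly in the plasma membrane, lysosome, endoplasmic reticulum and Golgi. In muscle, solute carriers bring in glucose, creatine and amino acids and connect the contractile filaments with mitochondrial ATP supply, so they lie between the diet and energy use. The genes described here are all those whose single symbol in the platform annotation starts with SLC and a digit, which gave 49 of 2922 named genes, on 106 of 9984 spots. Of these, 18 are SLC25 genes and 31 are others. By name, 2 of the 31 are not carriers: SLC2A4RG encodes a regulator of the gene for the insulin-responsive glucose carrier, and SLC7A6OS is a gene on the strand opposite a carrier gene. They are given apart, which leaves 47 carriers. A further 2 spots name SLC23A1 together with another gene and were left out.

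On 8 arrays with 2 colours, skeletal muscle RNA from high energy diet pigs was hybridised together with that from low energy diet pigs, in 4 couples of samples, each hybridised in both dye orientations. Couple 1 set high energy sample 40 against low energy sample 49, couple 2 set 41 against 61, couple 3 set 40 again against 142, and couple 4 set samples written ae and be, letters that are not expanded. Since a dye swap repeats the same extracts, its arrays were averaged, so n is 4 couples, and sample 40 enters 2 of them. Gene means are limma's fitted means, not plain averages of the couples. Where couples 1 and 3 have values, each weighs less than couples 2 and 4. The labels give no age, sex, breed, muscle or diet composition and do not say whether a sample is 1 animal or a pool. The errors thus rest only on how far couples differ, in part perhaps for technical reasons. They are limma's moderated errors, in which the spread of each gene is drawn toward a value shared by all features. A gene whose couples nearly agree therefore does not get a near-zero SE, and the smallest over all features was 0.079. All values are log2 ratios, read as high over low energy. That direction is likely, since the labels put high energy in channel 2 and the design names low energy as the reference, but it is not stated, so the turned value, the mean with the opposite sign given to arrays that carry high energy in dye 3, is given beside the ratios the text turns on.

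Arrays had values for 77.6% to 94.4% of spots and medians between -0.0071 and 0.011 before centring. Of the muscle fibre markers listed for this check 9 had a named spot, and all 9 gave values on all 8 arrays. In the fit 7 of them had means below 0, among them MB at -0.32 ± 0.10 (SE) and TNNT1 at -0.21 ± 0.080. Turned, 3 of the 9 lay below 0, MB was at 0.22 and TNNT1 at -0.047, so the side of the list depends on the direction. The part of these markers in the carrier values was not tested. APOA1, the 1 liver or kidney marker with a spot, gave a ratio in 3 couples, so a value on these arrays does not by itself show that a gene is used in muscle. Levels of different probes cannot be compared, and in bulk muscle fewer cells of a type and less RNA per cell cannot be told apart.

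High energy and low energy muscle did not differ detectably in any carrier. Of the 47 carriers, 37 had both dye orientations in at least 3 couples and were tested, 16 of the 18 SLC25 genes and 21 of the 29 others. In limma's test across 5025 features, 0 of the 37 passed an adjusted p of 0.05, as did 0% of all features, and the adjusted p was 0.996 for the carrier with the smallest p. At an unadjusted p under 0.05 there were 0 carriers, against 3.78% of all features (1.37% above 0 and 2.41% below) and 2.39% of named genes. By the sign of the mean, 16 carriers lay above 0 and 21 below, and with the sign turned 18 lay above and 19 below. Before turning, 56.8% lay below 0, against 53.6% of all features, of which 46.4% lay above 0, and 52.6% of named genes. The median log2 ratio of the carriers was -0.019 (turned -0.011), against -0.012 over all features. The median size of a carrier ratio was 0.11 and its median SE 0.13, over all features 0.090 and 0.13, so the typical ratio was no larger than its own error. No carrier mean exceeded 1.26-fold in either direction, or 1.28-fold with the sign turned.

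**Figure D1:**
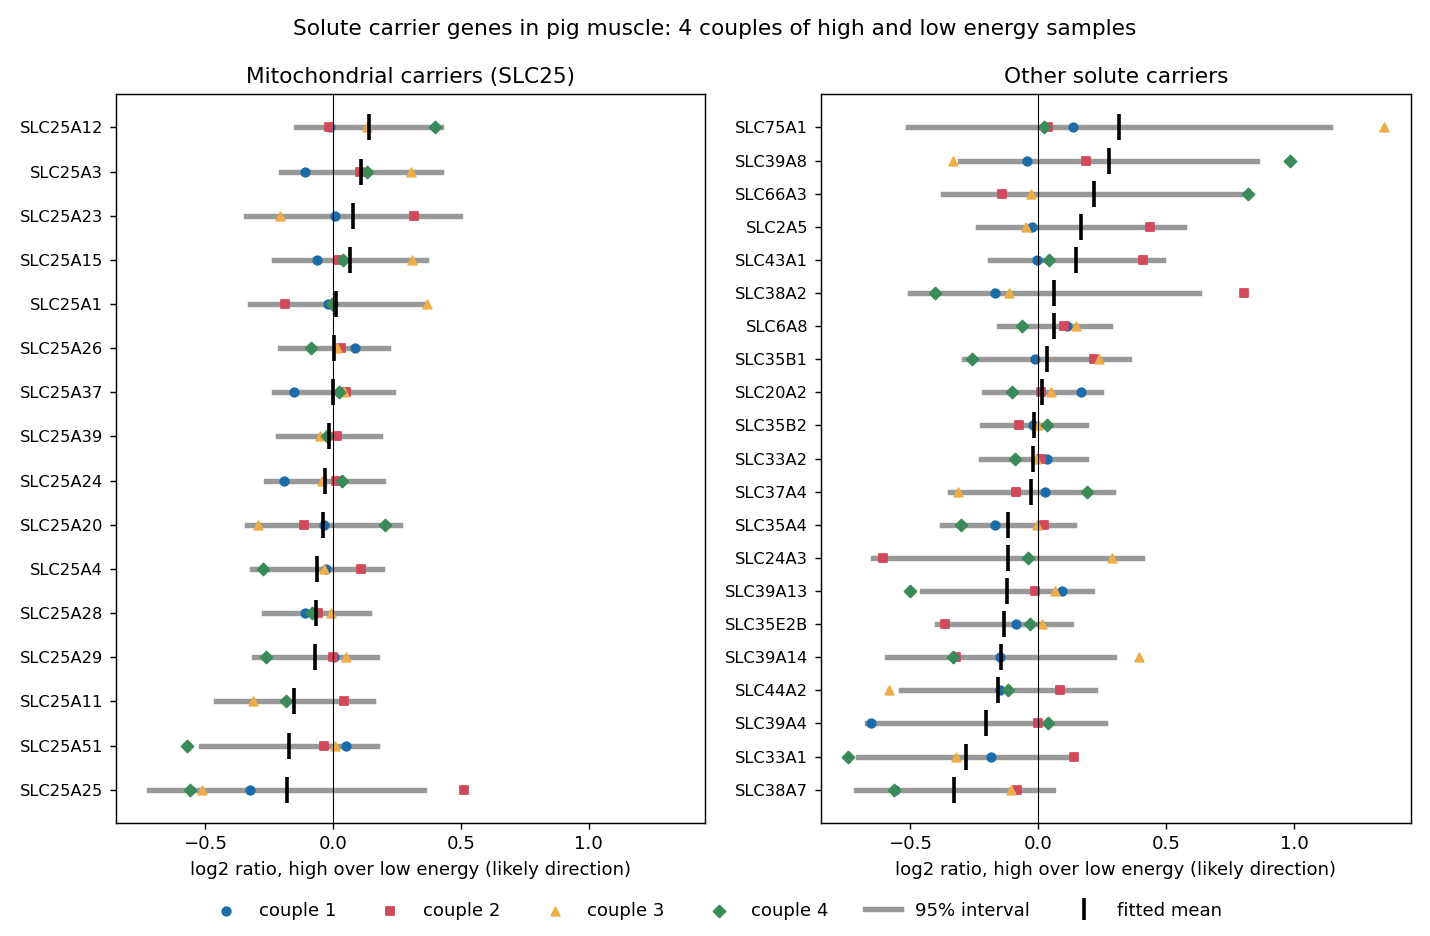
Log2 ratio (x axis) of each tested carrier gene (rows) in the 4 couples (coloured markers), with the fitted mean (black tick) and limma's 95% interval (grey bar), SLC25 genes on the left and the 21 other carriers on the right. All 37 intervals hold 0, the SLC25 means lie between -0.18 and 0.14, and the others lie between -0.33 and 0.32.

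Mitochondrial carriers had ratios of smaller size and smaller SDs than the others, and lay closer to named genes at large. The median size of a ratio was 0.066 for SLC25 genes and 0.13 for the others, against 0.078 over named genes. The 16 tested SLC25 genes had a median of -0.025 (turned 0.018), with 7 above 0 and 9 below (turned 10 and 6), and ranged from -0.18 to 0.14. The 21 other carriers had a median of -0.019 (turned -0.019), with 9 above and 12 below (turned 8 and 13), and ranged from -0.33 to 0.32. The SD of the ratio over couples had a median of 0.17 for the SLC25 genes and 0.27 for the others, against 0.21 over all features and 0.18 over named genes. Limma's 95% interval lay within 0.5 log2 of 0 for 14 of the 16 SLC25 genes and 10 of the 21 others. For these 24 of 37 a change larger than that lies outside the interval. Over all features the share was 61.4% and over named genes 69.8%. Whether SLC25 genes differ from the others in this respect was not tested. Each interval covers 1 gene in the direction read here, and intervals of turned values were not counted. SLC25A11 and SLC25A15, each within the bound, had turned values of -0.27 ± 0.13 and 0.27 ± 0.15 (SE). The median SLC25 ratio was -0.026, 0.017, -0.0018 and -0.025 in couples 1 to 4, and that of the others was -0.026, 0.010, -0.0069 and -0.078.

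ATP leaves the matrix through the adenine nucleotide carriers in exchange for ADP, and SLC25A4 is the form of heart and skeletal muscle. With high energy in dye 5 it had log2 ratios of -0.024, 0.11, 0.021 and -0.25 in couples 1 to 4, and with high energy in dye 3 of -0.029, 0.11, -0.095 and -0.30. Averaged over spots, couple 2 alone was above 0 on both arrays, but there its 2 spots had opposite signs, at -0.42 and 0.63 on the dye 5 array and 0.46 and -0.24 on the dye 3 array. Its mean was -0.062 ± 0.10 (SE, n = 4; 95% interval -0.32 to 0.19; turned 0.018). SLC25A5, a second adenine nucleotide carrier, had values on 5 arrays and both orientations in couple 1 only, at 0.47 and 0.34, and was not tested. SLC25A3 brings in the phosphate needed to make ATP. It had 0.086, 0.14, 0.54 and 0.11 with high energy in dye 5, and -0.30, 0.064, 0.069 and 0.15 in dye 3, so 7 of 8 arrays lay above 0. Its mean was 0.11 ± 0.13 (n = 4; 95% interval -0.20 to 0.42; turned 0.094). The 4 spots of this gene lie at 2 places on the array. The spots of 1 place averaged 0.23 and 0.17, and those of the other averaged 0.051 and 0.065 and gave no value in couple 1.

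Malate and aspartate carry the reducing power of glycolysis into mitochondria, by way of SLC25A11, the carrier of oxoglutarate and malate, and SLC25A12, the calcium-regulated aspartate and glutamate carrier of muscle and brain. SLC25A12 had the smallest p above 0 among the SLC25 genes. With high energy in dye 5 it had 0.11, -0.010, 0.24 and 0.39 in couples 1 to 4, and in dye 3 it had -0.13, -0.019, 0.023 and 0.41. Averaged over spots, couple 4 was high on both arrays and couple 2 was close to 0 on both. In couple 4 its 2 spots had -0.17 and 0.94 on the dye 5 array, and 0.27 and 0.56 on the dye 3 array. The mean was 0.14 ± 0.11 (n = 4; 95% interval -0.14 to 0.42; turned 0.043), and without couple 4 it was 0.028. SLC25A11 went the other way in sign, with 0.0033, -0.85 and -0.42 in couples 2 to 4 for high energy in dye 5 and 0.085, 0.22 and 0.053 in dye 3. Its values below 0 in these couples lay on arrays of 1 dye orientation, and in the direction read here the swapped arrays did not repeat them. The mean of -0.15 ± 0.12 over 3 couples (turned -0.27) was smaller in size than the turned value.

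Of the carriers of fuel intermediates, SLC25A20 and SLC25A1 had means close to 0. SLC25A20 exchanges carnitine for acylcarnitines on the way to fatty acid oxidation and had -0.17, 0.16, -0.45 and -0.22 with high energy in dye 5 and 0.10, -0.38, -0.13 and 0.63 in dye 3. Its mean was -0.038 ± 0.12 (turned -0.11), and its couple means were -0.037, -0.11, -0.29 and 0.20. SLC25A1, which exports the citrate used in fat synthesis, had 0.012 ± 0.14 (turned -0.017) and reached 0.37 in couple 3 against -0.19 to -0.0032 in the other couples. For both, couples disagreed in sign. The 3 calcium-regulated carriers that exchange ATP-magnesium for phosphate had 0.079 ± 0.16 for SLC25A23 (3 couples; turned -0.038), -0.033 ± 0.091 for SLC25A24 (turned 0.038) and -0.18 ± 0.22 for SLC25A25 (turned 0.018). The couple means of SLC25A25 were -0.32, 0.51, -0.51 and -0.56. Couple 2 stood against the other couples, and without it the mean was -0.48. In couple 4 its arrays had -1.17 with high energy in dye 5 and 0.055 in dye 3, so the dye swap did not repeat the low value. SLC25A23 had 2.14 on the dye 5 array of couple 4, with no value on the swapped array, and that couple did not enter its mean.

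Carriers of amino acids, cofactors and iron followed. SLC25A15, the ornithine carrier of the urea cycle, had 0.066 ± 0.12 (turned 0.27), with 0.72 and -0.68 on the 2 arrays of couple 2. SLC25A29, a carrier of basic amino acids, had -0.069 ± 0.096 (turned 0.0052). SLC25A26, which brings in S-adenosylmethionine, had 0.0037 ± 0.085 (turned 0.023), and its 8 arrays lay between -0.12 and 0.14. SLC25A51, the carrier of NAD, had -0.17 ± 0.14 (turned 0.065). With high energy in dye 5 it had 0.028, -0.032, -0.15 and -0.24, and in dye 3 it had 0.072, -0.043, 0.16 and -0.90. The value of couple 4 set that mean, which was -7.5e-05 without it, and both spots were low on its dye 3 array, at -0.71 and -1.09. SLC25A39, which is needed for glutathione in mitochondria, had couple means of -0.021, 0.016, -0.051 and -0.025 and a mean of -0.017 ± 0.080 (95% interval -0.22 to 0.18; turned -0.023). It had the smallest SD over couples of the 37 carriers, 0.028. Iron enters mitochondria through SLC25A37, best known from red cell precursors, and SLC25A28. SLC25A37 had 0.00018 ± 0.093 (turned 0.071), and SLC25A28 had -0.066 ± 0.082 (turned -0.056) and was below 0 in all 4 couples, at -0.11, -0.059, -0.0093 and -0.081. With high energy in dye 5 SLC25A28 had -0.26, 0.078, -0.43 and -0.027 in couples 1 to 4, and in dye 3 it had 0.037, -0.20, 0.41 and -0.14. In couples 1 to 3 its swapped arrays thus differed in sign. The 4 red blood cell markers with a spot lay between -0.27 and 0.038 (turned, between 0.029 and 0.17). Of the 37 carriers 30 had 4 couples, and 3 of these kept 1 sign in all of them, against 16.6% of all features with 4 couples. These 3 were SLC25A28 and SLC38A7 below 0, where 9.12% of features were, and SLC75A1 above 0, where 7.47% were. With the sign turned 2 of the 30 did. On all 8 arrays 0 of 30 kept 1 sign, against 2.25% of features. SLC25A34 had values on 6 arrays, between -0.31 and 0.60, and was not tested.

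**Figure D2:**
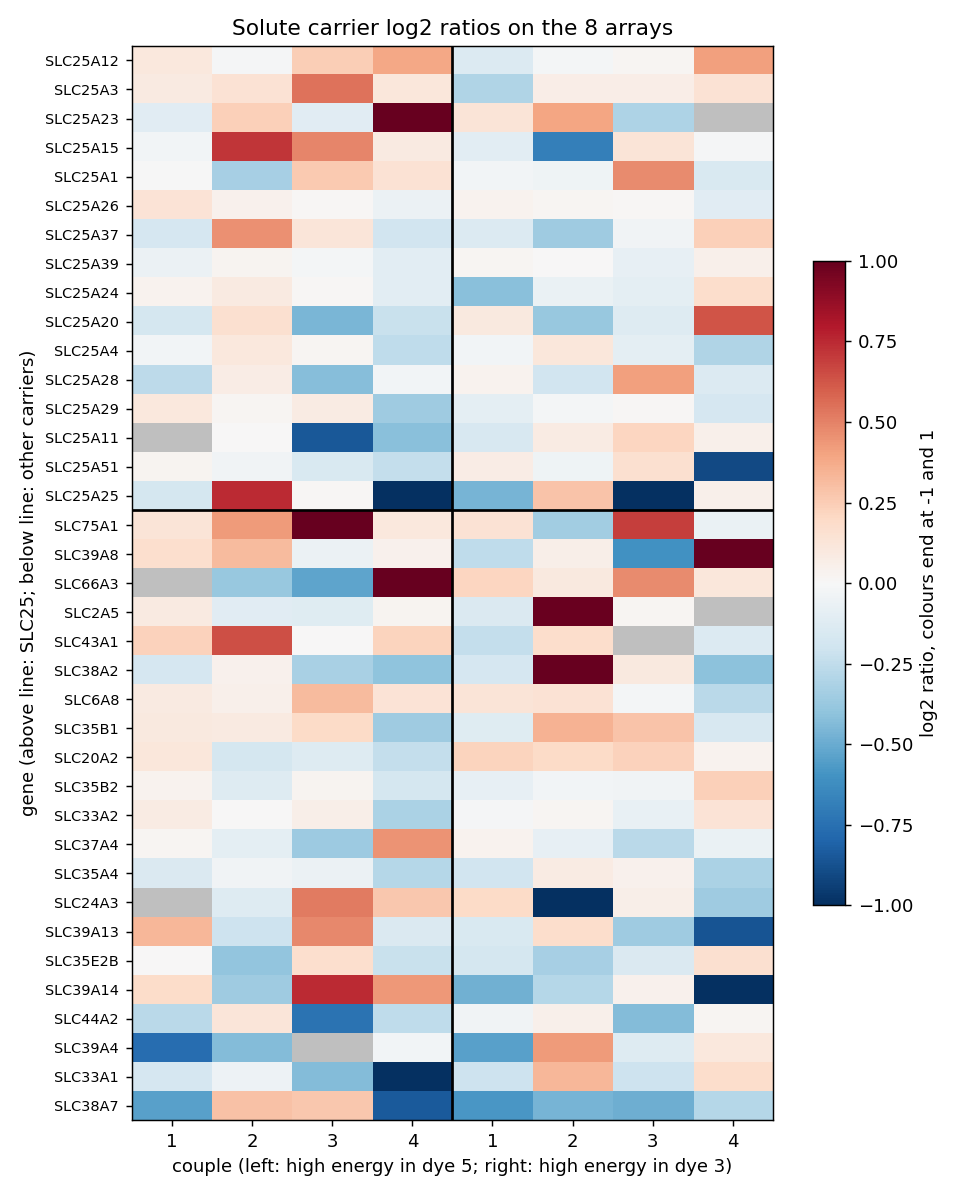
Log2 ratio of the 37 tested carriers (rows) on each of the 8 arrays (columns), with high energy in dye 5 on the left and in dye 3 on the right; red is above 0, blue below, grey no value, and colours end at -1 and 1. No row has 1 colour on all 8 arrays, and the darkest cells, such as SLC75A1 in couple 3 or SLC39A8 in couple 4, are mostly not repeated at that size on the swapped array.

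Amino acid carriers held the gene with the smallest p of all carriers. SLC38A7, which exports glutamine from lysosomes, had log2 ratios of -0.54, 0.29, 0.27 and -0.84 in couples 1 to 4 with high energy in dye 5, and of -0.58, -0.46, -0.49 and -0.29 in dye 3. It was below 0 on all 4 arrays with high energy in dye 3, and in couples 1 and 4 only with high energy in dye 5. The mean was -0.33 ± 0.15 (SE, n = 4; 1.26-fold lower; 95% interval -0.71 to 0.057; adjusted p = 0.996 in limma; turned 0.11), and between -0.43 and -0.23 when a couple was left out. Its 2 spots averaged -0.26 and -0.40. SLC38A2, which takes up small neutral amino acids and responds to amino acid supply, had -0.17, 0.042, -0.33 and -0.40 with high energy in dye 5 and -0.17, 1.56, 0.099 and -0.41 in dye 3. A value of 1.56 on 1 array set the mean of 0.063 ± 0.23 (turned -0.27), which was -0.25 without couple 2. SLC43A1, a carrier of branched-chain and other large neutral amino acids, had 0.15 ± 0.13 in 3 couples (turned 0.21) and 0.019 without couple 2. SLC6A8 takes up creatine, from which muscle makes its phosphagen store. With high energy in dye 5 it had 0.091, 0.055, 0.32 and 0.14, and in dye 3 it had 0.13, 0.14, -0.021 and -0.27. The first 2 couples agreed on both arrays, while couples 3 and 4 had opposite signs on their swapped arrays. Its mean was 0.062 ± 0.087 (95% interval -0.16 to 0.28; turned 0.077). SLC1A3, a glutamate carrier, and SLC36A4, a carrier of neutral amino acids, had values on 6 and 4 arrays and were not tested.

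Sugar carriers on the array were SLC2A5, the fructose carrier, and SLC37A4, which moves glucose 6-phosphate into the endoplasmic reticulum. SLC2A5 had couple means of -0.026, 0.44 and -0.048 in couples 1 to 3 and a fitted mean of 0.17 ± 0.15 (turned -0.22), which was -0.037 without couple 2. Most of its 4 spots gave values on few arrays, and in couple 2 the value of 0.99 on the dye 3 array came from 1 spot. SLC37A4 had -0.027 ± 0.13 (turned 0.064), with couple means of 0.028, -0.087, -0.31 and 0.19. The insulin-responsive glucose carrier SLC2A4 had no named spot here. Its regulator SLC2A4RG had 0.067 ± 0.18 (turned -0.13), with -0.41 in couple 1 and 0.54 in couple 2.

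Metal carriers gave 4 tested genes, with SDs over couples between 0.28 and 0.57. The SLC39 family moves zinc into the cytosol, and SLC39A8 and SLC39A14 also carry iron and manganese. SLC39A8 had 0.16, 0.31, -0.062 and 0.044 with high energy in dye 5 and -0.26, 0.058, -0.60 and 1.92 in dye 3. Its mean of 0.27 ± 0.23 (turned -0.15) rested on the 1.92, which came from 1 of its 2 spots, and was -0.029 without couple 4. SLC39A14 had 0.18, -0.36, 0.75 and 0.44 with high energy in dye 5 and -0.48, -0.29, 0.044 and -1.10 in dye 3. It was higher on the dye 5 array in couples 1, 3 and 4, and its turned value of 0.36 was larger in size than its mean of -0.15 ± 0.18. SLC39A13, the zinc carrier of the secretory pathway in connective tissue cells, had -0.12 ± 0.13 (turned 0.18). SLC39A4, best known for zinc uptake in the gut, had -0.21 ± 0.18 in 3 couples (turned -0.20), with -0.65 in couple 1, -0.0017 in couple 2 and 0.039 in couple 4, and 0.019 without couple 1. SLC39A3 and the magnesium carrier SLC41A1 had values on 6 arrays each and were not tested.

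Carriers of ions and phosphate gave 2 tested genes. SLC20A2, a sodium-coupled phosphate carrier, had 0.015 ± 0.092 (turned -0.14). On its 4 arrays with high energy in dye 3 it was above 0, between 0.033 and 0.23. In dye 5 it was below 0 in couples 2 to 4, so in the direction read here the swapped arrays differed in sign there. SLC24A3, which exchanges sodium for calcium and potassium, had -0.13, 0.52 and 0.27 in couples 2 to 4 with high energy in dye 5 and -1.09, 0.059 and -0.35 in dye 3. It was higher on the dye 5 array in all 3 couples, and its mean was -0.12 ± 0.20. Its turned value was 0.34 (adjusted p = 0.998 in limma, 3 couples). It was the 1 carrier of 37 past an unadjusted p of 0.05 for the turned value, where 2.65% of all features were and 0% passed the adjusted threshold. Its 2 spots averaged -0.40 and 0.31 over couples with both orientations. The anion carriers SLC4A3, SLC26A6 and SLC26A9 had values on 4 to 6 arrays and were not tested.

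Carriers of the secretory pathway included 4 tested members of SLC35, most of which move nucleotides and nucleotide sugars, all with intervals within 0.5 log2 of 0. SLC35B1, which brings ATP into the endoplasmic reticulum, had 0.033 ± 0.13 (turned -0.055), and SLC35B2, which supplies the sulphate donor to the Golgi, had -0.018 ± 0.081 (turned -0.059). SLC35A4 had -0.12 ± 0.10 (turned -0.018) and was below 0 on 6 arrays, and SLC35E2B had -0.13 ± 0.10 (turned -0.019), with -0.36 in couple 2 against -0.087 to 0.014 in the other couples. SLC35B4, a nucleotide sugar carrier of the Golgi, had values on 4 arrays and was not tested. SLC33A1 carries acetyl-CoA into the endoplasmic reticulum. It had -0.17, -0.047, -0.44 and -1.66 with high energy in dye 5 and -0.20, 0.33, -0.21 and 0.17 in dye 3. Couples 1 and 3 were below 0 on both arrays, and the value of -1.66 in couple 4 was met by 0.17 on its swapped array. Its mean was -0.28 ± 0.17 (turned -0.35), and -0.085 without couple 4. SLC44A2, a choline transporter-like protein, had -0.16 ± 0.15 (turned -0.083) with -0.59 in couple 3.

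Of the carriers without a described role here, SLC75A1 had the largest ratio above 0. It had 0.13, 0.42, 2.01 and 0.11 with high energy in dye 5 and 0.14, -0.35, 0.69 and -0.065 in dye 3. The mean was 0.32 ± 0.33 (1.24-fold higher; turned 0.27), and 0.066 without couple 3. In that couple 1 of its 2 spots read 3.81 on the dye 5 array and the other 0.21. SLC66A3 had -0.14, -0.027 and 0.82 in couples 2 to 4, with a mean of 0.22 ± 0.22 (turned -0.011), and -0.084 without couple 4. SLC33A2 had -0.019 ± 0.082 (turned -0.048), with couple means between -0.092 and 0.034.

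The error of these values was read from the dye swaps and the duplicate spots. Over the 37 carriers there were 141 pairs of swapped arrays, and 70 of them, or 49.6%, had the same sign on both arrays, against 50.5% over all features. For SLC25 genes the share was 53.2% of 62 pairs and for the others 46.8% of 79 pairs. The median difference in size between the 2 arrays of a couple was 0.19 log2 for SLC25 genes and 0.30 for the others, against 0.29 over all features. Neighbouring spots of the same gene differed by a median of 0.25 on the same array over the carriers, as they did by 0.27 over all named genes. Averaged over couples with both orientations, spots of 12 carriers differed in sign, 6 of them SLC25 genes. Rank correlations between the swapped arrays, over 34 to 37 carriers, were 0.098, -0.11, 0.12 and 0.029 in couples 1 to 4. These describe points that share arrays and carry no test.

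**Figure D3:**
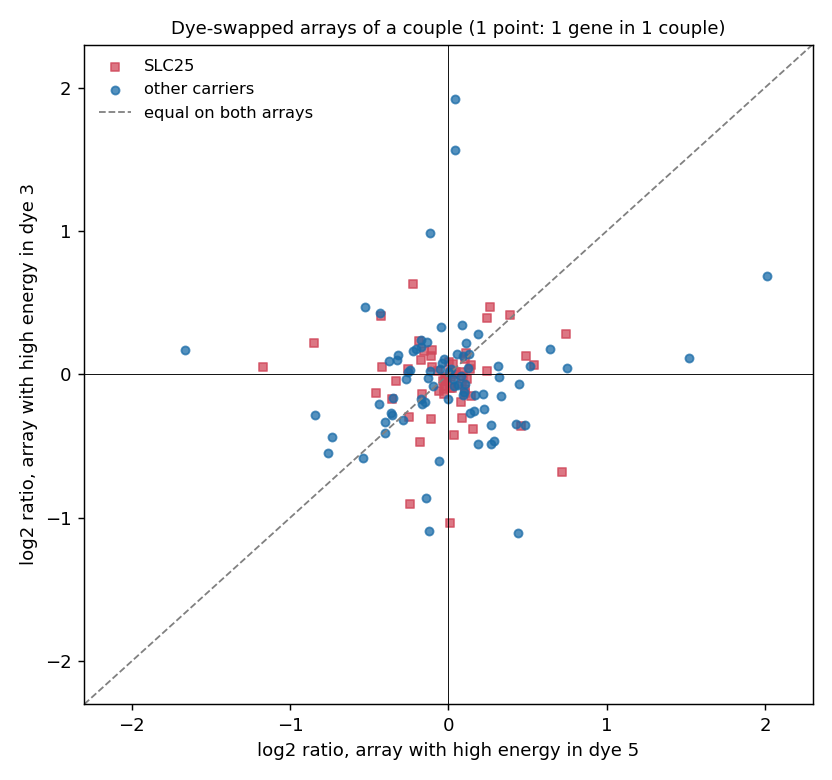
Each point is 1 carrier gene in 1 couple, with its log2 ratio on the array with high energy in dye 5 (x axis) and on the swapped array (y axis); squares are SLC25 genes and circles the other carriers, and the dashed line marks equal values. The 141 points form a cloud around 0 and do not follow the line: 70 lie in the quadrants of equal sign, and most points beyond 1 or -1 on an axis lie near 0 on the other.

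Spread between couples was lower for brighter spots. Most deposited values equal log2 of a fraction with small whole terms, and the greater term of the simplest such fraction, the recovered signal, is a lower bound on a spot's brightness. Values that gave no such fraction were counted as bright. For 12 carriers the median recovered signal was over 1000, 6 of them SLC25 genes, and the SD of their ratio over couples had a median of 0.11 and ranged from 0.028 to 0.29. For the 25 dimmer carriers it had a median of 0.27 and ranged from 0.043 to 0.64. Over the 37 carriers the rank correlation of this SD with the recovered signal was -0.67, a description over genes that share arrays. The largest ratio in size was 0.17 among the brighter carriers and 0.33 among the dimmer ones. Intervals lay within 0.5 log2 of 0 for 11 of the 12 brighter and 13 of the 25 dimmer carriers. The 11 genes not tested, SLC7A6OS included, had values on 4 to 6 arrays and median recovered signals of 179 to 381, and single values between -0.96 and 2.00. Of the 49 genes 38 reached the test, or 37 carriers and SLC2A4RG, where 87.5% of all named genes did.

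**Figure D4:**
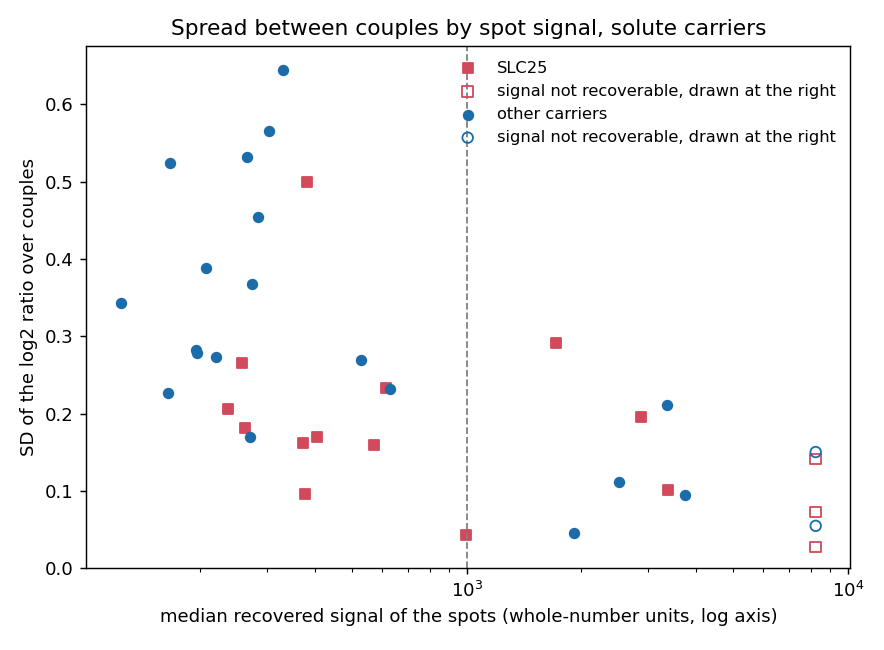
SD of the log2 ratio over couples (y axis) against the median recovered signal (x axis, log scale) of the 37 tested carriers; squares are SLC25 genes, circles the other carriers, and open symbols at the right edge are the 5 genes whose median value gave no recovered signal. Right of the dashed line at 1000 no SD exceeds 0.29, and the SDs above that all belong to dimmer genes, with SLC75A1 highest at 0.64.

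Genes that work with the carriers also gave no call. Of the genes listed for the sodium pump, whose gradient drives many plasma membrane carriers, 4 were measured: FXYD5, FXYD1, FXYD6 and ATP1B1. No gene of the catalytic subunit (ATP1A) was among them. Of the 4, 2 lay above 0 and 2 below (turned 1 and 3), with 0 past an unadjusted p of 0.05. FXYD5, a regulator of the pump, had -0.31 ± 0.12 (adjusted p = 0.996 in limma; turned -0.15) and was below 0 on 7 arrays, and FXYD1, the form of heart and muscle, had 0.080 ± 0.12 (turned -0.014). BSG, the partner that brings lactate carriers to the membrane, had -0.15 ± 0.11 (turned -0.051) and was below 0 on 7 arrays. Of the genes listed for exchange at the mitochondrial membranes under symbols other than SLC25, 10 had a named spot, and 7 of those were tested. Of these, 4 lay above 0 and 3 below, with a median of 0.036 (turned 2 and 5, median -0.013). VDAC1, the outer membrane pore, had 0.25 ± 0.20 (turned -0.29), with couple means of -0.14, -0.087, 0.25 and 0.83, and HK1, the hexokinase that binds that pore, had -0.14 ± 0.12 in 3 couples (turned -0.013). Of 3 tested genes listed for the traffic of the insulin-responsive glucose carrier (VAMP2, TXNIP and SNAP23), 1 had an unadjusted p under 0.05, as 3.78% of all features did. This was VAMP2, the vesicle SNARE, with couple means of -0.095, -0.19, -0.44 and -0.63. It was below 0 on all 8 arrays, where 2.25% of features on 8 arrays kept 1 sign, with a mean of -0.35 ± 0.14 (adjusted p = 0.996 in limma; turned 0.25). TXNIP, which promotes removal of glucose carriers from the membrane, had -0.065 ± 0.11 in 3 couples (turned 0.47), so its turned value was the larger in size.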

How the data were processed

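The values the authors deposited were taken as log2 ratios between channels, from the values themselves. What was done to the scanned intensities first (background, filter, normalization) is not stated in the labels or file headers used. Arrays were centred on their medians, spots with 1 symbol averaged per gene, and the swapped arrays of a couple averaged. Testing needed values in both orientations for 3 or more couples. Ratios were tested against 0 with limma 3.58.1 in R 4.3.3 (lmFit, eBayes), two-sided, blocked on the high energy sample with a fixed correlation of 0.5 and Benjamini-Hochberg adjustment over 5025 features at 0.05, and the procedure was tested on simulated data. Errors are limma's standard errors. The number of arrays limits the precision. Recovered signals were taken where the lesser whole number was under 5000, which held for 85.9% to 97.1% of values per array. Symbols come from the platform annotation, whose accessions are human; 47 of the 49 SLC symbols also occur in the pig tables. How well each probe binds its pig transcript is unknown, no coordinates or sequences were used, and close relatives may share a probe. The members and lists were chosen with earlier results of these data known. Described in most detail were carriers with the smallest p in each direction, the largest ratios or turned values, or a known part in muscle energy use, some by values on each array and others by couple means. Partners were those with the 2 smallest p of a list.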

Additional observations from a re-analysis of the deposited data

Results flagged for a closer look

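In 4 of the 30 carriers measured in 4 couples, 1 couple lay apart from the other 3 by more than Dixon's 95% critical value for the gap over the range. Of all 3640 features with 4 couples, 269 or 7.39% had such a couple, and chance puts about 1 in 20 groups past it, so nothing particular to the carriers is read from the count. SLC75A1 had 1.35 in couple 3, where the other couples lay between 0.021 and 0.14. SLC25A51 had -0.57 in couple 4, against -0.037 to 0.050. SLC25A29 had -0.26 in couple 4, against -0.0013 to 0.049. SLC25A37 had -0.15 in couple 1, against 0.024 to 0.049.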

How the results depend on the processing

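Under 19 alternative settings 0 of all features and 0 carriers passed the adjusted threshold. At an unadjusted p under 0.05 the main count of 0 carriers became 1 with couples taken as independent or with all 8 arrays fitted (SLC38A7 in both), 1 with high energy in dye 3 alone (SLC38A7), turned (SLC24A3) or with every spot on its own (SLC39A14), and 2 without couple 2 (SLC33A1 and SLC25A25) or without couple 3 (SLC38A7 and SLC39A14). Over all 5025 features the main count of 190 became 310 and 353 in the first 2 of these settings, 213 of 5761 with high energy in dye 3 alone, 133 turned, 253 of 7563 with every spot on its own, 107 without couple 2 and 284 without couple 3. It was 108 of 5687 with high energy in dye 5 alone and 122 without couple 4, each with 0 carriers. The SLC25 median of -0.025 was 0.018 turned and -0.0020 with high energy in dye 3 alone, and lay between -0.041 and 0.0070 when a couple was left out, above 0 without couple 4. The median of the other carriers was 0.025 with high energy in dye 3 alone. The number above 0, 16 of 37, was 9 of 22 with dim values left out, 31 of 72 with every spot on its own, and 10 of 28 with all spots of a gene measured, a setting chosen after seeing the data; these settings test other numbers of genes or spots. Leaving out a couple gave 12 to 17 above 0. Of 25 genes described in detail, 7 kept their sign in each setting run. An estimated correlation for couples with the same high energy sample could not be fitted, as only couples 1 and 3 share a sample.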

Other observations

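Other transporter families on the array showed no call either. Of 8 tested subunits of the proton pump that acidifies lysosomes and vesicles, 5 lay above 0 and 3 below, with a median of 0.016 (turned 1 and 7, median -0.033). ATP6V1A had -0.18 ± 0.13 (turned 0.068) and was below 0 in all 4 couples, as 9.12% of features with 4 couples were. ATP6V0E1 had -0.19 ± 0.15 in 3 couples (turned -0.012). ATP2A1, the calcium pump of fast fibres, had 0.036 ± 0.079 (turned 0.0043). It was above 0 in all 4 couples, between 0.018 and 0.067, as 7.47% of features with 4 couples were. ATP2A2 had -0.078 ± 0.19 (turned -0.0071), with -0.60 in couple 3. The 4 tested genes with an ABC family symbol were ABCD4, ABCB1, ABCF3 and ABCF1, taken by symbol, which does not show that each is a transporter. They lay between -0.13 and 0.0089 (turned, between -0.37 and 0.082). SLCO4A1, an organic anion carrier, had 0.088 ± 0.10 (turned -0.052).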
